A study of Mus musculus with 2 samples.

Results

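Aminoacyl-tRNA synthetases are the enzymes that attach each amino acid to its transfer RNA before translation. The genes described here are the 35 synthetase genes of a fixed list, found by symbol in the tables of both libraries, out of 22093 genes with a usable value in all. Of these, 20 code for enzymes of the cytosol and 15, whose symbols end in 2, for enzymes that nuclear genes supply to mitochondria. All 35 were listed on a single entry, had a value above 0 in both libraries, and reached 1 FPKM (fragments mapped to a gene, scaled by transcript length and by library size), the level from which a gene was called measured.

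The values came from RNA sequencing of whole sciatic nerve of mice of mixed strain at postnatal day 7, with 1 library labelled control and 1 labelled Tsc1cKO. Tsc1 codes for a subunit of the TSC complex, which restrains the growth kinase complex mTORC1. The names under which both tables were deposited carry Dhhcre, a Cre recombinase driven by the desert hedgehog promoter of the Schwann cell lineage, with TSC1c plus for control and TSC1cc for Tsc1cKO. This reads as a control that also carried Cre and a conditional Tsc1 copy beside an intact copy, and the labels themselves give neither the alleles nor how many animals were pooled. A single library per group allows no test of genotype, and higher and lower are used of these libraries alone. Pairs of values have control first, and a difference is the Tsc1cKO value less the control value, both as log2(FPKM + 1), which makes changes of weakly expressed genes look smaller than they are.

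The charging reaction is shared by enzymes of a pair of unrelated catalytic folds, class I and class II. In the cytosol of mammals a group of synthetases is held in a large complex by the scaffold proteins AIMP1, AIMP2 and the product of Eef1e1, and the others act outside it. In cultured mouse cells mTORC1 promotes the synthesis of the transcription factor ATF4, and ATF4 in turn binds and activates many cytosolic synthetase genes. The family is known in peripheral nerve because dominant variants of several human cytosolic synthetase genes, among them those for glycine, tyrosine, alanine and histidine, cause inherited neuropathy.

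Tsc1 itself was at 3.76 FPKM in control and 2.28 in Tsc1cKO, a value that covers the whole gene and every cell type of the nerve. The FPKM summed to 416853 and 492760. Over the 7844 genes that reached 5 FPKM in each library, Tsc1cKO was higher by a median of 0.24 on the log2 scale, and values called centred have Tsc1cKO divided by the matching factor of 1.18. Schwann cell markers were abundant in both libraries, 7 of them summing to 17289 and 4327 FPKM, with Sox10 at 212 and 246 FPKM and S100b at 169 and 167. Mbp and Prx, markers of the myelinating state, were at 14783 and 2564 FPKM and at 1445 and 320.2, and the other 5 markers summed to 1062 and 1443 FPKM, higher in Tsc1cKO. All 5 markers of dividing cells were higher by at least 2-fold as deposited, as were 624 of the 12409 measured genes. The summed level of these 5 markers was 85.7 and 191 FPKM. After centring Ccnb1 and Cdk1 stayed past 2-fold, with differences of 1.10 and 1.06. Top2a, Mki67 and Pcna then fell short of it on the log2(FPKM + 1) scale, at 0.98, 0.83 and 0.81. The 4 muscle markers summed to 161 and 326 FPKM, with Myh3 under 1 FPKM in both libraries, and the 5 fibroblast markers, all lower, to 7102 and 4797. The summed level was 67.6 and 50.4 FPKM for 4 endothelial markers, 55.7 and 65.1 for 5 macrophage markers, 119 and 96.7 for 3 perineurial markers, 90.4 and 73.1 for 3 pericyte markers, 223 and 297 for 3 adipocyte markers and 6.79 and 9.53 for 4 markers of the melanocyte lineage, of which Mlana was at 0 in both. The part of these shifts in the differences below was not tested, and in whole nerve fewer cells of a type and less RNA per cell cannot be told apart.

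Cytosolic synthetase genes were higher in Tsc1cKO nearly throughout, while the mitochondrial ones went both ways, much as the measured genes did as a whole. Of the 20 cytosolic genes, 19 had a higher value in Tsc1cKO, where 67.0% of the 12409 measured genes did. Their median difference was 0.49, against 0.20 over all measured genes, and 19 of the 20 lay above that all-gene median. After centring the same count was 19 of 20, where 49.1% of measured genes were higher, and the median was 0.26 against −0.01. Of the 15 mitochondrial genes, 11 were higher as deposited and 8 after centring, close to the shares of all genes, with medians of 0.25 and 0.06. The differences were modest in size. No member of either group passed 2-fold in either direction, which 8.09% of measured genes did. At 1.5-fold, which is 0.58 on the log2(FPKM + 1) scale, 7 cytosolic genes and 1 mitochondrial gene were higher and no member was lower, against 17.8% of all measured genes higher and 7.53% lower. After centring, 2 cytosolic genes and no mitochondrial gene were higher by 1.5-fold, where 9.08% of all genes were. Qars, at 0.60, was the member just inside the 1.5-fold limit on that scale and Vars, at 0.56, the member just outside it. In FPKM without the added 1, Vars was 1.52-fold higher. The difference between the cytosolic and the mitochondrial median was 0.24 as deposited and 0.20 after centring. With 1 library per group this difference has no replicate check.

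**Figure D1:**
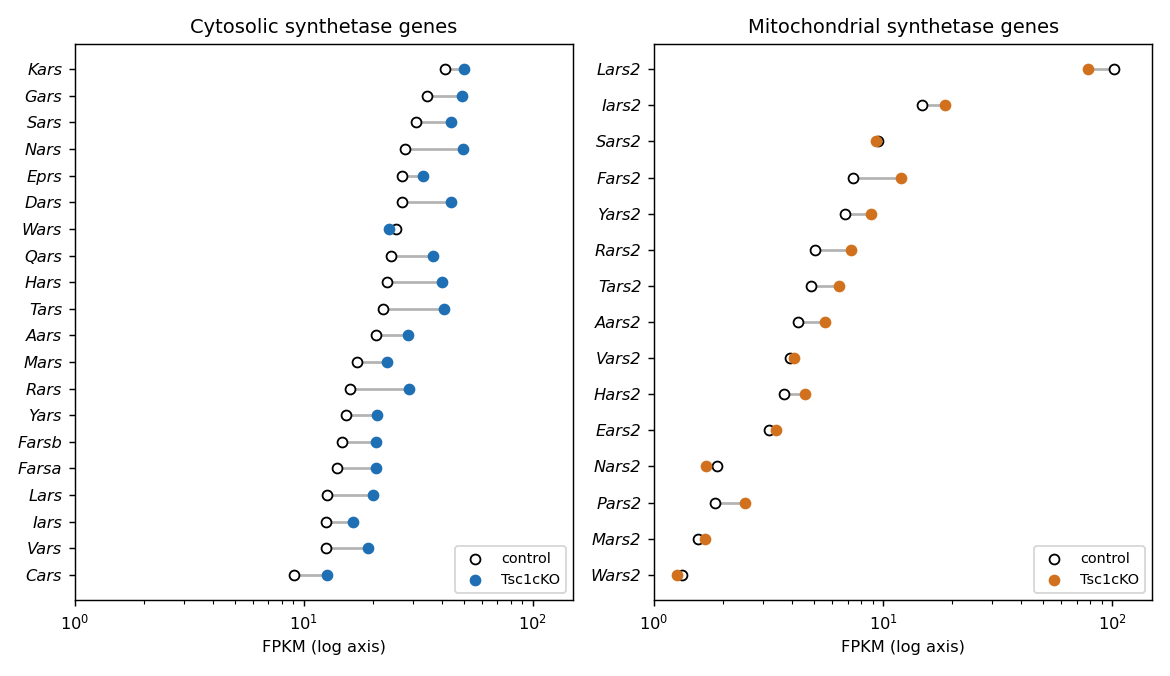
Level of each synthetase gene in FPKM on a log axis, cytosolic genes on the left and mitochondrial genes on the right, each ordered by its control value. Open circles are the control library and filled circles the Tsc1cKO library. Filled circles lie to the right of open ones for 19 of 20 cytosolic and 11 of 15 mitochondrial genes, and Lars2 stands apart from the other mitochondrial genes in both libraries.

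In control the cytosolic genes spanned 9.07 to 41.2 FPKM with a median of 21.4, and in Tsc1cKO 12.7 to 50.2 with a median of 28.6. Kars, the gene of lysyl-tRNA synthetase, was the highest of them in both libraries and Cars, the gene of the cysteine enzyme, the lowest. The mitochondrial genes other than Lars2 lay between 1.32 and 14.9 FPKM in control and between 1.27 and 18.6 in Tsc1cKO. Summed over the 20 cytosolic genes the level was 426 FPKM in control and 621 in Tsc1cKO, 1.46-fold higher. Summed over the 14 mitochondrial genes other than Lars2 it was 70.1 and 87.1 FPKM, 1.24-fold higher.

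All 8 synthetase genes of the multi-enzyme complex were higher in Tsc1cKO, as deposited and after centring, with medians of 0.50 and 0.27. Rars, which codes for the arginine enzyme (mm9 chromosome 11, 35621883 to 35648030), was at 15.9 FPKM in control and 28.6 in Tsc1cKO, 1.80-fold higher. Dars, the gene of the aspartate enzyme (chromosome 1, 130260284 to 130313993), was at 26.8 and 43.8 FPKM, 1.64-fold higher. Lars (chromosome 18, 42362003 to 42421725) was at 12.6 and 20.1 FPKM, 1.59-fold higher. Its product charges leucine and has been described in human cells as a leucine sensor upstream of mTORC1. Qars, for glutamine, was at 24.0 and 36.8 FPKM, and Mars, for methionine, at 17.1 and 23.1. The span of Mars shares 68 bases with that of Ddit3, which was at 10.6 and 29.0 FPKM, so the value of Mars is uncertain. Iars, for isoleucine, was at 12.5 and 16.4 FPKM, Eprs, whose protein charges both glutamate and proline, at 26.9 and 33.1, and Kars at 41.2 and 50.2. Eprs and Kars had the smallest positive differences of the cytosolic group, 0.29 and 0.28, and after centring 0.06 and 0.05.

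The scaffold genes of the complex stood beside its enzymes. Aimp1 was at 34.1 and 56.0 FPKM, 1.64-fold higher, Aimp2 at 13.9 and 21.1, and Eef1e1 at 8.68 and 12.9. All 3 were higher, with a median difference of 0.57 as deposited and 0.35 after centring. The span of Aimp2 shares 14 bases with that of Eif2ak1, so its value is uncertain.

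Of the 12 cytosolic genes outside the complex, 11 were higher, again with a median of 0.49 (0.26 centred). The largest difference of the family was that of Tars, the gene of threonyl-tRNA synthetase (chromosome 15, 11313418 to 11329413), at 22.2 FPKM in control and 40.8 in Tsc1cKO, 1.83-fold higher. Nars, for asparagine (chromosome 18, 64659301 to 64676211), was at 27.6 and 49.7 FPKM, 1.80-fold higher, and Hars, for histidine (chromosome 18, 36926182 to 36942859), at 23.0 and 40.0 FPKM, 1.74-fold higher. Tars and Nars were the 2 genes that stayed past 1.5-fold on the log2(FPKM + 1) scale after centring, at 0.62 and 0.59. Rars, at 0.58, fell just short.

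Vars, for valine, was at 12.5 and 18.96 FPKM, and Farsa and Farsb, which code for the alpha and beta subunits of the phenylalanine enzyme, were at 14.0 and 20.7 and at 14.7 and 20.7. The genes of these 2 subunits thus differed by similar amounts, 0.54 and 0.47. Gars, which codes for the glycine enzyme of both compartments, was at 34.5 and 48.9 FPKM, and Sars, for serine, at 30.8 and 43.7. Aars, for alanine, was at 20.6 and 28.6 FPKM, Cars at 9.07 and 12.7, and Yars, for tyrosine, at 15.3 and 20.9. Aars and Yars are uncertain as well, since the first shares 532 bases with Exosc6 and the second 30 bases with C77080.

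Wars was the exception among the cytosolic genes. It codes for tryptophanyl-tRNA synthetase, which interferon-gamma induces in many cell types, and lies on chromosome 12, 110098240 to 110132384. Its value was 25.2 FPKM in control and 23.6 in Tsc1cKO, a difference of −0.09 that centring took to −0.32. Gars and Kars each supply the cytosolic and the mitochondrial enzyme from the same gene, and their differences were 0.49 and 0.28.

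**Figure D2:**
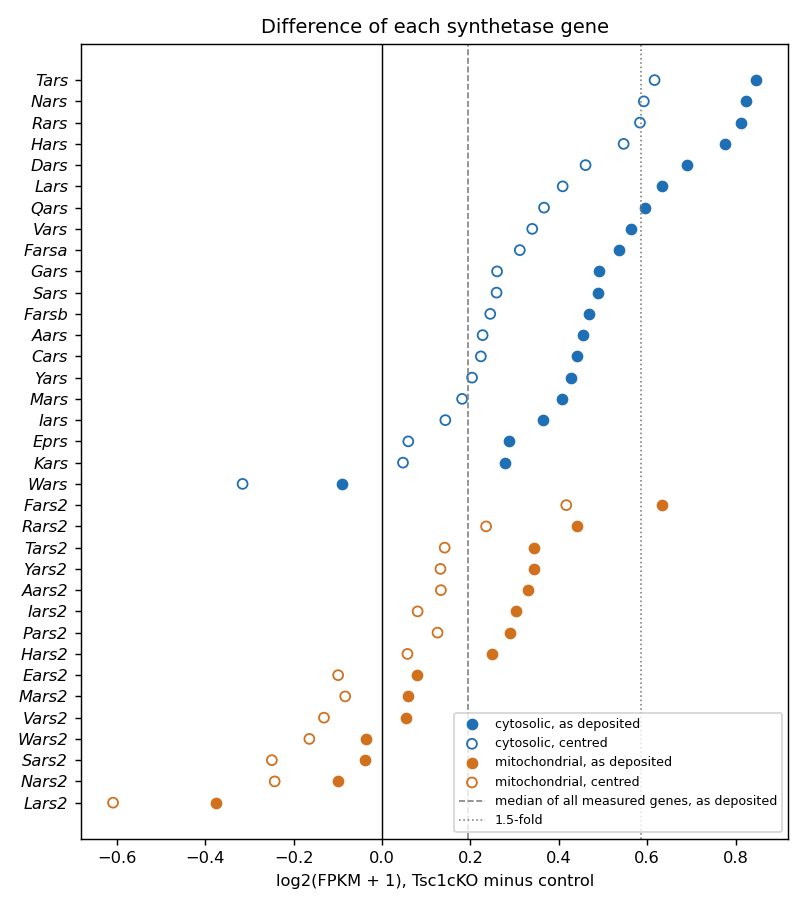
Difference of each synthetase gene, Tsc1cKO minus control, in log2(FPKM + 1). Filled circles are values as deposited and open circles the same after centring, the dashed line is the median of all measured genes as deposited (0.20), and the dotted line marks 1.5-fold. Cytosolic genes run from −0.09 for Wars to 0.85 for Tars and mitochondrial genes from −0.38 for Lars2 to 0.63 for Fars2.

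The mitochondrial genes went both ways. Fars2, the gene of the mitochondrial phenylalanine enzyme (chromosome 13, 36209280 to 36629462), was at 7.38 FPKM in control and 12.0 in Tsc1cKO, 1.63-fold higher, the only mitochondrial member past 1.5-fold. Rars2, for arginine, followed at 5.06 and 7.22 FPKM. Tars2 was at 4.86 and 6.44 FPKM, Yars2 at 6.79 and 8.88, Aars2 at 4.24 and 5.59, and Pars2, for proline, at 1.85 and 2.49. These 4 genes, for threonine, tyrosine, alanine and proline, had differences of 0.29 to 0.34. Iars2, for isoleucine, was at 14.9 and 18.6 FPKM, and its span shares 85 bases with Rab3gap2 and also holds the microRNA genes Mir194-1 and Mir215. Hars2, for histidine, was at 3.67 and 4.55 FPKM.

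A further 3 mitochondrial genes were within 0.08 of 0 on the positive side and turned negative after centring. They were Ears2, for glutamate, at 3.17 and 3.40 FPKM, Mars2, for methionine, at 1.55 and 1.66, and Vars2, for valine, at 3.90 and 4.09. Sars2, for serine, was at 9.54 and 9.27 FPKM, Nars2, for asparagine, at 1.87 and 1.68, and Wars2, for tryptophan, at 1.32 and 1.27. Together with Lars2 these made up the 4 of 15 mitochondrial genes with a lower value in Tsc1cKO, where 33.0% of all measured genes were lower.

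Lars2, the gene of the mitochondrial leucine enzyme (chromosome 9, 123276058 to 123371782), stood apart in level and direction. It was at 102 FPKM in control and 78.3 in Tsc1cKO, 1.30-fold lower, a difference of −0.38 (−0.61 centred). Its control level was 6.86 times that of Iars2, the next mitochondrial gene, and above that of every cytosolic member. Whether reads of other origin add to the value of Lars2 was not tested. Lars2 alone made up 59.2% of the summed mitochondrial level in control and 47.3% in Tsc1cKO, so the sum over all 15 genes, at 172 and 165 FPKM, was lower in Tsc1cKO although 11 of the 15 were higher.

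For most amino acids the cytosolic gene gained on its mitochondrial partner. Partner genes gave 16 comparisons, in which Eprs and Fars2 each stood in 2 and so tie those comparisons together. The cytosolic difference was the larger in 12 of the 16, with a median gap of 0.28 on the log2 scale. The widest gap was for leucine, where Lars was 0.12 of the level of Lars2 in control and 0.26 in Tsc1cKO. For asparagine the gap was 0.92 on the log2(FPKM + 1) scale. In FPKM, Nars went from 14.8 to 29.5 times the level of Nars2, which was near the 1 FPKM limit at 1.87 and 1.68. The gap lay between 0.50 and 0.53 for histidine, serine, threonine and valine. It was 0.37 for arginine, 0.35 for methionine and 0.21 for glutamate, and narrower for alanine, tyrosine and isoleucine, at 0.12, 0.09 and 0.06. The mitochondrial gene had the larger difference in both phenylalanine comparisons, by 0.10 against Farsa and 0.16 against Farsb, and by 0.05 for tryptophan. The proline comparison of Eprs with Pars2 was level on the log2(FPKM + 1) scale, at a gap of −0.002. In FPKM, Eprs went from 14.5 to 13.3 times the level of Pars2. Hars and Hars2 are direct neighbours, with 74 bases between their spans on chromosome 18, and yet had differences of 0.78 and 0.25.

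**Figure D3:**
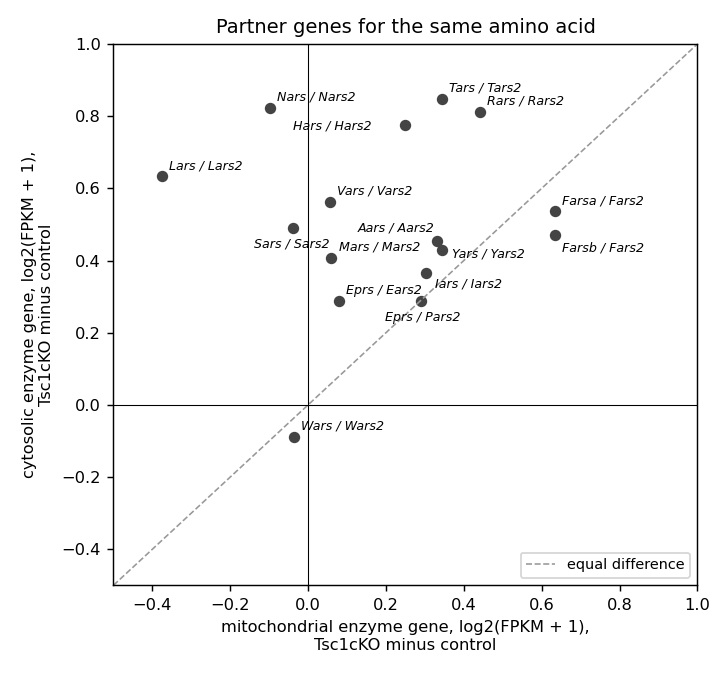
Difference of the cytosolic gene (vertical axis) against that of its mitochondrial partner (horizontal axis) for the same amino acid, both Tsc1cKO minus control in log2(FPKM + 1). The dashed line marks equal differences, and 12 of 16 points lie above it, with leucine and asparagine farthest from it.

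The catalytic fold, which the choice of genes did not use, separated the members less than their compartment did. Of 17 class I members 14 were higher (11 centred), with a median of 0.37, and of 17 class II members 15 were higher (15 centred), with a median of 0.47. Eprs holds a domain of each class and was counted in neither.

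The cytosolic genes were also split by known control by ATF4, and whether ATF4 had a part in the differences was not tested. The 12 cytosolic genes known as ATF4 targets had a median difference of 0.45, with 11 higher, and the other 8 cytosolic genes had a median of 0.58, with 8 higher. After centring the medians were 0.23 and 0.35. Tars and Nars belong to the first group, and Rars, Hars and Dars to the second. ATF4 and 24 other genes of its response outside the synthetases were mixed. Of 24 measured, 16 were higher and 8 lower (14 and 10 centred), with a median of 0.32. The share higher as deposited was close to the 67.0% of all measured genes. On the log2(FPKM + 1) scale, 3 passed 2-fold higher and 0 lower, against 624 and 380 of the 12409 measured genes. In FPKM, Trib3 (0.59 and 2.08) and Chac1 (0.65 and 1.42) were also more than 2-fold higher, and Slc7a11 was 3.37-fold lower. Atf4 itself was at 99.9 and 124 FPKM. Ddit3, which codes for the stress factor CHOP, was at 10.6 and 29.0 FPKM, Asns, the asparagine synthetase gene, at 2.95 and 8.89, and Cebpb, which codes for a partner factor of ATF4, at 10.01 and 22.7. Of the 7 amino acid transporter genes on the same list 5 were lower and 2 higher, chosen as a group after their values were seen, with Slc7a11 at 1.80 and 0.53 FPKM, Slc1a5 at 24.6 and 15.9 and Slc7a5 at 16.1 and 11.6. The 2 higher ones were Slc1a4, at 4.44 and 6.46 FPKM, and Slc7a1, at 3.88 and 5.05.

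Promoter sequences of 300 bases, 250 before and 50 after the start site, were found in RefSeq (GRCm38.p6) for 26 of the 35 members, 13 cytosolic and 13 mitochondrial. Cars, Hars, Lars, Nars, Rars, Vars, Wars, Hars2 and Pars2 were not matched. The motif TGATGNAA, the core of the C/EBP-ATF response element to which ATF4 binds, was searched on both strands. It stood in 5 of the 13 cytosolic promoters, those of Aars, Gars, Iars, Tars and Yars, in none of the 13 mitochondrial ones, and in 3.97% of all 32851 promoters of that length. All 5 genes belong to the known ATF4 targets, of which 8 were matched. Stretches of 30 bases around matches are shown because the motif stood in cytosolic and in no mitochondrial promoter searched, written on the strand of the gene with the motif in capitals. In Aars, Gars, Iars and Tars the capitals read as its reverse complement.
Tars, chr15:11399655-11399684, minus strand, motif from 15 bases before the start site: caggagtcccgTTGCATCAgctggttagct
Aars, chr8:111033840-111033869, plus strand, motif from base 10 of the transcript: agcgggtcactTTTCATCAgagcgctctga
Gars, chr6:55037960-55037989, plus strand, motif from 30 bases before the start site: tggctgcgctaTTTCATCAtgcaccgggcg
Iars, chr13:49682126-49682155, plus strand, motif from base 8 of the transcript: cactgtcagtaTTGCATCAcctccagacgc
Yars, chr4:129189895-129189924, plus strand, motif from base 4 of the transcript: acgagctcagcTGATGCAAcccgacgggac

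Among the 13 matched cytosolic genes the motif did not go with the size of the difference. Nars, Rars, Hars and Lars, with differences of 0.82, 0.81, 0.78 and 0.63, had no promoter to search. The comparison thus leaves out several of the largest differences. The 5 cytosolic genes that hold it had differences of 0.37 to 0.85 with a median of 0.46, and the 8 matched cytosolic genes without it 0.28 to 0.69 with a median of 0.48. These matches are letters in a window and do not show that a factor was bound. For context, the 250 bases before the start site of Tars, the member with the largest difference, are given with the motif in capitals.
Tars, chr15:11399659-11399908, minus strand: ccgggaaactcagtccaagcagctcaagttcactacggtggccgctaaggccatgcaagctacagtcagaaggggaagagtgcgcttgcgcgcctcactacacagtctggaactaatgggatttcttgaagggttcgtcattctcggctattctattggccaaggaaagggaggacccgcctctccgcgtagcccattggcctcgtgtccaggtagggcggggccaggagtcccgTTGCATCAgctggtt

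Other genes of translation gave a scale for these differences. Of 80 measured genes for cytosolic ribosomal proteins 79 were higher (79 centred), with a median of 0.73. Of 54 genes with symbols of translation initiation and elongation factors 47 were higher (40 centred), with a median of 0.39. These 54 include Eif2c1, Eif2c2 and Eif2c3, which code for Argonaute proteins and had differences of 0.21, −0.16 and −0.27. The cytosolic synthetases, at 0.49, lay between them. Ribosomal protein genes have many near-identical copies in the genome, so their values are uncertain. All 76 genes for mitochondrial ribosomal proteins were higher as deposited and 70 after centring, with a median of 0.52. In the same libraries the mitochondrial synthetases had 11 of 15 higher (8 centred) and a median of 0.25. The partner genes that complete charging in mitochondria were also mixed, with 3 of 5 higher as deposited and 1 after centring and a median of 0.16. Cars2 was at 5.67 and 6.54, and Mtfmt, whose product formylates the initiator methionyl-tRNA, at 2.88 and 2.77. Qrsl1, Pet112l and Gatc, the genes of the subunits of the amidotransferase that makes mitochondrial glutaminyl-tRNA, were at 5.92 and 5.02, 2.88 and 4.11, and 16.8 and 18.9 FPKM.

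**Figure D4:**
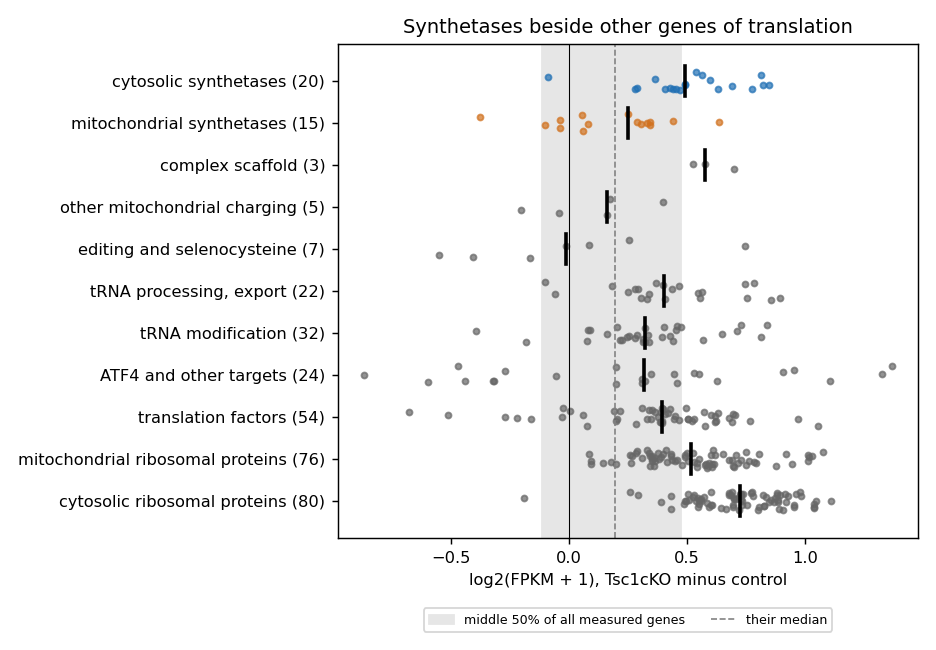
Difference of each measured gene (points), Tsc1cKO minus control in log2(FPKM + 1), by group, with the number of genes in brackets and the group median as a black bar. The grey band holds the middle 50% of all measured genes, from −0.11 to 0.47, and the dashed line is their median; the cytosolic synthetases have a median of 0.49 and the mitochondrial ones 0.25.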

How the data were processed

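Total RNA of sciatic nerve was taken with Trizol and libraries were made with a TruSeq kit, per the labels' protocols. The authors deposited a table of FPKM values for each library, per the file headers. The submitters' processing notes list CASAVA, TopHat, Cufflinks and the build mm9 with no versions, and strand use is not given in the sources used here. Of 22532 entries, 227 symbols on several entries were summed, and 3 genes with a failed estimate were left out. Read depth is unknown, so no counting interval is given. For 626 entries above 0 and below 0.05 FPKM in both libraries, the ratio of Tsc1cKO to control took no common value. At most 5 entries stood at the commonest ratio to 3 decimals. A gene was measured if it reached 1 FPKM anywhere. Differences use a pseudocount of 1, and starts of spans are counted from 1. The members, lists and thresholds were chosen with earlier results of these data known, and the ribosomal protein and translation factor families by symbol after the files were seen. Every member could be named, together with the scaffold and mitochondrial partner genes and up to 3 genes with the largest absolute difference of each other list. Atf4, Trib3, Chac1 and some amino acid transporter genes of the ATF4 list were named beyond this rule, with their values known. So were Eif2c1, Eif2c2 and Eif2c3. Gatb, Dtd2, Rtcb and Adgre1 matched no symbol, although older symbols on the lists stood in for Gatb, Rtcb and Adgre1. Some items are not reported here. The counting was tested on simulated data. Python 3.11.15, numpy 2.4.6, pandas 2.3.3 and matplotlib 3.10.9 were used.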

Additional observations from a re-analysis of the deposited data

How the results depend on the processing

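No paired analysis was possible because each group holds 1 library, and no library could be left out. The cytosolic median of 0.49 was 0.50 with a pseudocount of 0.1, 0.44 with 5, 0.26 centred, 0.32 with upper quartile scaling, 0.51 without Gars and Kars and 0.54 without overlapping genes. The mitochondrial median of 0.25 was 0.30 with a pseudocount of 0.1, 0.13 with 5, 0.34 with a filter of 5 FPKM, 0.058 centred, 0.11 with upper quartile scaling and 0.16 without overlapping genes. Their difference of 0.24 was 0.20, 0.31, 0.15, 0.20, 0.21 and 0.37 in the same order, and 0.26 without Gars and Kars. The median over all genes was 0.22 with a pseudocount of 0.1, 0.12 with 5 and 0.23 with a filter of 5 FPKM. It was −0.01 centred and 0.045 with upper quartile scaling. Chosen after seeing the data, centring within 10 classes of transcript length (GENCODE M21) or of mean level gave 0.27 and 0.25 for the cytosolic median, 0.065 and 0.094 for the mitochondrial one and 0.21 and 0.16 for their difference. No setting changed the sign of either synthetase median. The count of cytosolic genes higher was 19 of 20 in every setting that kept all 20, while that of mitochondrial genes fell from 11 to 8 of 15 when centred, and was 6 of the 8 that pass a filter of 5 FPKM. The count past 2-fold was 0 in each setting, and 8 at 1.5-fold.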

Other observations

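The genes that mature transfer RNAs before charging were mostly higher in Tsc1cKO, where 67.0% of all measured genes were higher as deposited and 49.1% after centring. Of 22 measured genes for end processing, splicing and export 20 were higher (18 of 21 centred), with a median of 0.40 (0.20 centred), beside 0.20 over all measured genes. Trnt1, which codes for the enzyme that adds the CCA end to which amino acids are attached, was at 7.16 and 14.2 FPKM, 1.98-fold higher. Clp1, for an RNA kinase of the splicing complex, was at 4.08 and 8.19 FPKM, and Ssb, for the La protein that binds new transfer RNAs, at 22.8 and 40.1. Of 32 measured modification genes 30 were higher (26 of 31 centred), with a median of 0.32 (0.15 centred). Among them Pus1, a pseudouridine synthase gene, was at 6.77 and 12.9 FPKM, Adat3, for a subunit of the adenosine deaminase of the wobble base, at 1.43 and 3.26, and Trmt61a, for a methyltransferase subunit, at 3.99 and 7.28.

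Genes of trans-editing and of selenocysteine charging had no common direction, with 3 of 7 higher (2 centred) and a median of −0.01. Aarsd1, whose product clears wrongly charged transfer RNA for alanine, was at 14.9 and 25.7 FPKM. Dtd1, for a deacylase that removes D-amino acids from transfer RNA, was at 13.7 and 9.08 FPKM, and Sepsecs, for the enzyme that makes selenocysteinyl-tRNA, at 4.77 and 3.36.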
